A study of Mus musculus with 8 samples.

Results

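The 42 genes of glucose uptake, glycolysis, pyruvate entry and the tricarboxylic acid (TCA) cycle described here were chosen by name, out of 54837 gene identifiers in the table, and all 42 had enough counts to be tested. Their RNA was counted in 8 sequencing libraries, each made from CD4 T cells of the mouse spleen sorted once tamoxifen had been given on 5 days in a row. Every mouse carried Foxp3-eGFP-Cre-ERT2, in which the gene of the regulatory T (Treg) cell factor FoxP3 drives a green fluorescent protein (GFP) and a Cre recombinase that tamoxifen activates. The 3 GFPhi libraries come from mice with a further transgene, FSF-TIM-3, for the inhibitory receptor TIM-3, and their cells were GFP+ and FoxP3+ as well as TIM-3+ and FLAG+. The 3 GFPlow libraries share that genotype, and their cells were TIM-3+ and FLAG+ but GFP- and FoxP3-. The 2 WT libraries come from mice without FSF-TIM-3, with cells that were GFP+ and FoxP3+ but TIM-3- and FLAG-. The titles call all 8 libraries Treg, although the cell type label of GFPlow is FoxP3-. No label says that the libraries of a group came from separate animals, so p-values measure the spread between these libraries, part of which may be technical.

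Glycolysis splits glucose into pyruvate. Glucose enters through transporters, is trapped by hexokinase, is committed by phosphofructokinase and passes through the triose stage. Pyruvate is then either reduced to lactate by lactate dehydrogenase or carried into mitochondria, where pyruvate dehydrogenase turns it into acetyl-CoA for the TCA cycle. Pyruvate dehydrogenase kinases (the Pdk genes) switch that enzyme off. Activated effector T cells are known for high glycolysis, and Treg cells for relying more on mitochondrial oxidation, with glycolysis in use when they divide or migrate. Several steps have isoenzymes, encoded by separate genes that catalyse the same reaction with different affinity or control.

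Levels are in CPM, counts scaled to a common library total, here after TMM scaling. Total counts per library ran from 44446215 to 55388756. Foxp3 itself followed the gates, at 60.2, 68.1 and 81.0 CPM in GFPhi libraries 1 to 3, 2.45, 1.97 and 4.82 CPM in GFPlow and 41.7 and 63.2 CPM in WT. WT library 1 stood apart, with counts in 18599 genes against 21248 to 22185 elsewhere, and each WT result below is therefore given for both WT libraries. In WT library 2 the female-expressed Xist (242 CPM) and the Y-linked gene Ddx3y (6.16 CPM) were counted together. GFPhi library 3 and GFPlow library 3 held Xist with no count of Ddx3y, and the other 5 libraries held Ddx3y at 170 to 229 CPM. Library 3 of GFPhi and of GFPlow thus differed in source from libraries 1 and 2 of its group, and what the mixture in WT library 2 adds to comparisons with it was not tested. Markers of other cells were low beside the T cell markers Cd3e, Cd3d, Cd3g, Cd4 and Trac, whose sum was 4412 to 5440 CPM outside WT library 1. The sum of 5 NK cell markers was 2.21 to 6.30 CPM in GFPhi, 19.2 to 54.4 in GFPlow, and 9.31 and 1.84 in WT. For 5 platelet markers the sum was 0.1875 to 0.640 CPM in GFPhi, 0.336 to 5.30 in GFPlow, and 40.8 and 3.24 in WT. Cd8a and Cd8b1 of CD8 T cells summed to 19.7 to 23.7 CPM in GFPhi and 21.5 to 32.8 in GFPlow. In WT they summed to 37.7 and 16.2 CPM. The sum of 5 myeloid markers was 1.60 to 24.0 CPM in GFPhi, 2.78 to 229 in GFPlow, and 9.25 and 31.5 in WT, with 197 CPM from Lyz2 alone in GFPlow library 3. Of the B cell markers given here, Cd79b was at 50.1, 44.5 and 43.2 CPM in GFPhi, 3.62, 3.03 and 11.2 CPM in GFPlow and 70.4 and 50.6 CPM in WT. Cd79a ran from 0.620 CPM in GFPlow library 3 to 3.41 CPM in WT library 1, over all 8 libraries. The defining marker Ms4a1 had no count in GFPhi and was at 0.0203 CPM in GFPlow library 2 and 0.828 CPM in WT library 2, with no count in the other GFPlow and WT libraries. Their part in the results below was not tested, and in bulk libraries fewer cells of a type and less RNA per cell cannot be told apart.

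Per kilobase of exon, which allows genes to be compared, Ldha was the most abundant of the 42 genes in GFPhi, at 351 ± 18.1 CPM per kilobase (SD, n = 3). Eno1, an enolase of the triose stage, followed at 231 ± 10.6. The malate dehydrogenase gene Mdh1 was at 196 ± 10.5 and the aldolase gene Aldoa at 189.7 ± 1.32, a pair whose GFPhi means differed by less than the SD of Mdh1. These lengths count all annotated exonic bases, which exceed the longest transcript unevenly. They are 2567 against 2122 bases for Mdh1, 2911 against 1549 for Aldoa, 3562 against 1606 for Mdh2 and 5001 against 2432 for Pkm. For Ldha they are 3310 against 1815 and for Eno1 5379 against 2027. The gap between Ldha and Eno1, the place of Mdh1 in the order and its closeness to Aldoa therefore depend on the length used. At the other end of the order stood Hk2, at 1.19 ± 0.329 CPM per kilobase, and Pfkfb4, at 0.435 ± 0.0560. Summed per role, the 10 triose stage genes gave 725 to 792 CPM per kilobase in GFPhi and 741 to 771 in GFPlow, ranges that overlap. The 11 TCA cycle genes gave 734 to 752 in GFPhi and 743 to 755 in GFPlow. The 5 genes of the phosphofructokinase step gave 33.5 to 37.0 in GFPhi and 40.1 to 43.3 in GFPlow, which do not overlap, and neither do the 8 genes of pyruvate entry and its control, at 162 to 174 in GFPhi and 183 to 186 in GFPlow. Neither gap held without 1 gene: without Pfkp the sums were 16.3 to 19.3 and 18.8 to 20.1, and without Pdk1 they were 149 to 162 and 151 to 155, which overlap.

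The 5 genes that the comparisons below turn on are shown with the bases just before their start sites, because Pdk1, Hk2 and other glycolysis genes are textbook targets of the hypoxia-inducible factor. Sequences run 5′ to 3′ on the strand of the gene and are from RefSeq (GRCm38.p6). Capitals mark the core of the hypoxia response element, ACGTG or GCGTG on either strand, so a match on the other strand reads CACGT or CACGC. The windows are chr6:82774455-82774704 (minus strand) for Hk2, chr11:70656926-70657175 (plus) for Eno3, chr6:142507958-142508207 (minus) for Ldhb, chr2:71872974-71873223 (plus) for Pdk1 and chr7:80115393-80115600 (minus) for Idh2, the last cut to the 208 bases outside the exon that GENCODE vM21 annotates.
Hk2: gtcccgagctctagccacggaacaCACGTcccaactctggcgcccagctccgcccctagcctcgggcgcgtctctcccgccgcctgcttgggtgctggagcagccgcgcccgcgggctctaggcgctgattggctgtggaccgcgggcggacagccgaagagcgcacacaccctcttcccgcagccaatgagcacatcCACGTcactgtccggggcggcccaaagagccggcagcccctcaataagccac
Eno3: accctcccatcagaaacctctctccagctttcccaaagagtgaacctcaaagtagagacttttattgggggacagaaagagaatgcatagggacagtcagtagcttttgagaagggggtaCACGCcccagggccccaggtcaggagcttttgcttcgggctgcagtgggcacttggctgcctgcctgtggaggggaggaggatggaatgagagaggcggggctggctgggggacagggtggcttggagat
Ldhb: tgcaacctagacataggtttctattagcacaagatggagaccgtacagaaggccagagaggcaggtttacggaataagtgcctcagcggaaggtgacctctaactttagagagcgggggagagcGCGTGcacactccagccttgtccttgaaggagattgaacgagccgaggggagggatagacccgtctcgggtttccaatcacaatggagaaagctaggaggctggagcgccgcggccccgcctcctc
Pdk1: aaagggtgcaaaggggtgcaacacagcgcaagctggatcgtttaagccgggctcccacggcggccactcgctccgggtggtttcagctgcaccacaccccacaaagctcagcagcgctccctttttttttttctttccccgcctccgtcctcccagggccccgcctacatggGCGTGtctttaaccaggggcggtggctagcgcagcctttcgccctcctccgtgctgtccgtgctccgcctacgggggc
Idh2: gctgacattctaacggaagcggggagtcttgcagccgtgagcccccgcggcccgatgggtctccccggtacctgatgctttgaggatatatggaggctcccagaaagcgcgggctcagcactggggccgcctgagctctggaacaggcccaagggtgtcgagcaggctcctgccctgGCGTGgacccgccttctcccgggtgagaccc
The first base of each match, counted back from the RefSeq start site, lay at -226 and -52 in Hk2, at -130 in Eno3, at -126 in Ldhb, at -78 in Pdk1 and at -73 in Idh2. Windows of 250 bases were found for 40 of the 42 genes, all but Slc2a3 and Idh3a. The core was in 30 of these 40 windows (75.0%), against 12679 of all 32851 RefSeq windows (38.6%). The E-box CACGTG, which contains ACGTG, was in 3 of the 40 windows (7.5%), those of Pfkm, Ldha and Pdk2, against 6.02% of all windows. These shares come from unlike sets. The 42 genes all had enough counts to be tested, while the 32851 windows were not limited to such genes. Each form of the core holds the letters CG, and the sets were not matched for base composition. Whether the core is enriched among the 42 genes was therefore not tested. A match is a description of the letters and not a bound site, and genes that differed in opposite directions between groups all held one.

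The comparison of GFPhi with GFPlow sets FoxP3+ against FoxP3- cells that both carry TIM-3. Of the 42 genes, 4 (9.52%) passed edgeR's quasi-likelihood test at a Benjamini-Hochberg adjusted p under 0.05, against 2.26% of all 18851 genes tested. Hk2 and the enolase gene Eno3 were higher in GFPhi, where 1.63% of all genes were. The kinase gene Pdk1 and the isocitrate dehydrogenase gene Idh2 were lower, as were 0.626% of all genes. That balance over all genes depended on the settings, with 911 higher and 1379 lower where length trends and WT library 1 were both taken out. The 42 log2 fold changes were split evenly, with 21 above 0 and 21 below 0, and had a median log2 fold change of 0.00 (0.01 over all genes tested). For 19 of the 42 genes (45.2%) the ranges of GFPhi and GFPlow were separate, 12 higher and 7 lower in GFPhi, against 30% of all genes (16% higher and 14% lower).

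Among the transporters, Slc2a3, which encodes the high-affinity glucose transporter GLUT3, was at 35.8, 37.3 and 40.3 CPM in GFPhi and 19.2, 24.3 and 25.4 CPM in GFPlow. Every GFPhi library lay above every GFPlow library, yet the difference did not pass the test (log2 fold change 0.72 ± 0.29, SE; adjusted p = 0.385). Slc2a1, which encodes the basal transporter GLUT1, was at 21.8, 31.4 and 22.4 CPM in GFPhi and 33.2, 31.6 and 27.4 CPM in GFPlow. These ranges overlap (log2 fold change -0.29 ± 0.24).

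Hk2 (ENSMUSG00000000628, chr6:82725025-82774454, minus strand, GRCm38) encodes hexokinase 2, the inducible form of the enzyme that phosphorylates glucose on entry. It was at 9.30, 6.63 and 5.47 CPM in GFPhi libraries 1 to 3 and at 0.430, 0.508 and 1.47 CPM in GFPlow libraries 1 to 3. The highest GFPlow library, the one with the highest myeloid and NK sums, still lay below the lowest GFPhi library. The log2 fold change was 3.15 ± 0.57 (SE, adjusted p = 0.0306), the farthest from 0 among the 42 genes. Without GFPlow library 3 it was 3.92 (adjusted p = 0.0227). Hk1, the constitutive hexokinase, was more abundant and was at 92.0, 66.9 and 68.7 CPM in GFPhi and 66.6, 61.1 and 65.6 CPM in GFPlow. The GFPhi libraries lay just above the GFPlow libraries, with GFPhi library 1 apart from the other GFPhi libraries, and the difference did not pass the test (0.24 ± 0.37). Gpi1, glucose-6-phosphate isomerase, also showed no overlap, with 302 ± 18.6 CPM in GFPhi and 262 ± 10.8 CPM in GFPlow (SD, n = 3), and did not pass (0.20 ± 0.38).

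The phosphofructokinase genes showed no called difference. Pfkp, the platelet-type subunit and the most abundant of the 3 subunit genes here per kilobase, was at 236, 234 and 229.9 CPM in GFPhi and 328, 305 and 268 CPM in GFPlow. All GFPhi libraries lay below all GFPlow libraries (-0.37 ± 0.36, adjusted p = 0.943). Pfkl and Pfkm, the liver- and muscle-type subunits, overlapped between the groups. Pfkfb3 and Pfkfb4 encode the enzymes that make and remove the activator fructose-2,6-bisphosphate. Pfkfb3 differed by 0.01 ± 0.21. Pfkfb4 was at 1.82, 2.18 and 2.35 CPM in GFPhi and 8.61, 2.36 and 6.88 CPM in GFPlow, where library 2 lay at the GFPhi level and libraries 1 and 3 well above it (-1.49 ± 0.74, adjusted p = 0.530).

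In the triose stage, Eno3 (ENSMUSG00000060600, chr11:70657202-70662513, plus strand) encodes beta-enolase, the form known from muscle. It was at 43.2, 42.4 and 37.4 CPM in GFPhi and 18.1, 11.5 and 12.4 CPM in GFPlow. The lowest GFPhi library was well above the highest GFPlow library, and the log2 fold change was 1.55 ± 0.27 (adjusted p = 0.0279). Its abundant isoenzyme Eno1 was at 1241 ± 57.3 CPM in GFPhi and 1264 ± 37.2 CPM in GFPlow (SD, n = 3), a difference of -0.03 ± 0.48 on the log2 scale. Tpi1, triose phosphate isomerase, was at 193, 181 and 154 CPM in GFPhi and 96.9, 99.2 and 140.4 CPM in GFPlow, higher in every GFPhi library but not called (0.65 ± 0.24, adjusted p = 0.300). Bpgm, which diverts a glycolytic intermediate to 2,3-bisphosphoglycerate, lay lower in every GFPhi library (33.5 ± 4.26 against 47.9 ± 2.42 CPM) and was not called (-0.51 ± 0.24). Aldoa was at 556, 553 and 548 CPM in GFPhi and 631, 647 and 593 CPM in GFPlow, without overlap and with a difference of only -0.18 ± 0.31. Pkm, pyruvate kinase, was at 818, 735 and 679 CPM in GFPhi and 792, 720.1 and 723 CPM in GFPlow. Its groups overlapped and differed by -0.00 ± 0.47. Pgk1 and Pgam1, the kinase and mutase between the triose and enolase steps, also overlapped, at 0.18 and 0.08 on the log2 scale.

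The lactate dehydrogenase subunits differed from each other. Ldha, the subunit that favours making lactate, was at 1120.1, 1230.1 and 1133 CPM in GFPhi and 1309, 1219.6 and 1333 CPM in GFPlow, which overlap (-0.15 ± 0.18). Ldhb (ENSMUSG00000030246, chr6:142490249-142507957, minus strand), the subunit that favours using lactate, was at 161, 171 and 149 CPM in GFPhi and 91.7, 78.3 and 79.9 CPM in GFPlow. The groups were far apart relative to their spread, but the adjusted p was 0.0535, just past the threshold, at a log2 fold change of 0.94 ± 0.20.

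Pdk1 (ENSMUSG00000006494, chr2:71873224-71903858, plus strand) was at 73.5, 96.0 and 94.4 CPM in GFPhi and 241, 245 and 234 CPM in GFPlow. Every GFPlow library held more than 2 times the Pdk1 of every GFPhi library, and the log2 fold change was -1.45 ± 0.17 (adjusted p = 0.00548). The other kinase genes lay the other way without a call, Pdk3 at 76.0, 64.3 and 54.4 CPM in GFPhi and 50.8, 52.1 and 44.6 CPM in GFPlow (0.40 ± 0.19), and Pdk2 at 18.2, 16.3 and 14.2 CPM and 8.31, 10.2 and 14.0 CPM (0.58 ± 0.70). The dehydrogenase subunits that these kinases control were close between the groups, with log2 fold changes of -0.01 for Pdha1, -0.15 for Pdhb and -0.09 for Dlat. The mitochondrial pyruvate carrier genes Mpc1 and Mpc2 differed by 0.16 ± 0.33 and 0.01 ± 0.37, and both overlapped.

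Of the 11 TCA cycle genes, only Idh2 was called in this comparison. Idh2 (ENSMUSG00000030541, chr7:80094846-80115392, minus strand) encodes the mitochondrial isocitrate dehydrogenase that makes NADPH. It was at 64.2, 57.0 and 56.7 CPM in GFPhi and 148, 129.9 and 135 CPM in GFPlow. The lowest GFPlow library was above 2 times the highest GFPhi library, and the log2 fold change was -1.21 ± 0.24 (adjusted p = 0.0477). The 3 genes of the NAD-dependent isocitrate dehydrogenase of the same cycle, Idh3a, Idh3b and Idh3g, lay at -0.07, -0.04 and 0.11 with overlapping libraries. Cs, citrate synthase and the entry of the cycle, was at 238, 254 and 227 CPM in GFPhi and 225, 242 and 229.7 CPM in GFPlow, which overlap (0.04 ± 0.23). The other cycle genes ran from -0.31 for Ogdh to 0.33 for Fh1. G6pdx, which opens the pentose phosphate branch, was at 73.3, 71.2 and 72.8 CPM in GFPhi and 71.0, 81.6 and 80.1 CPM in GFPlow, which overlap (-0.10 ± 0.36).

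**Figure D1:**
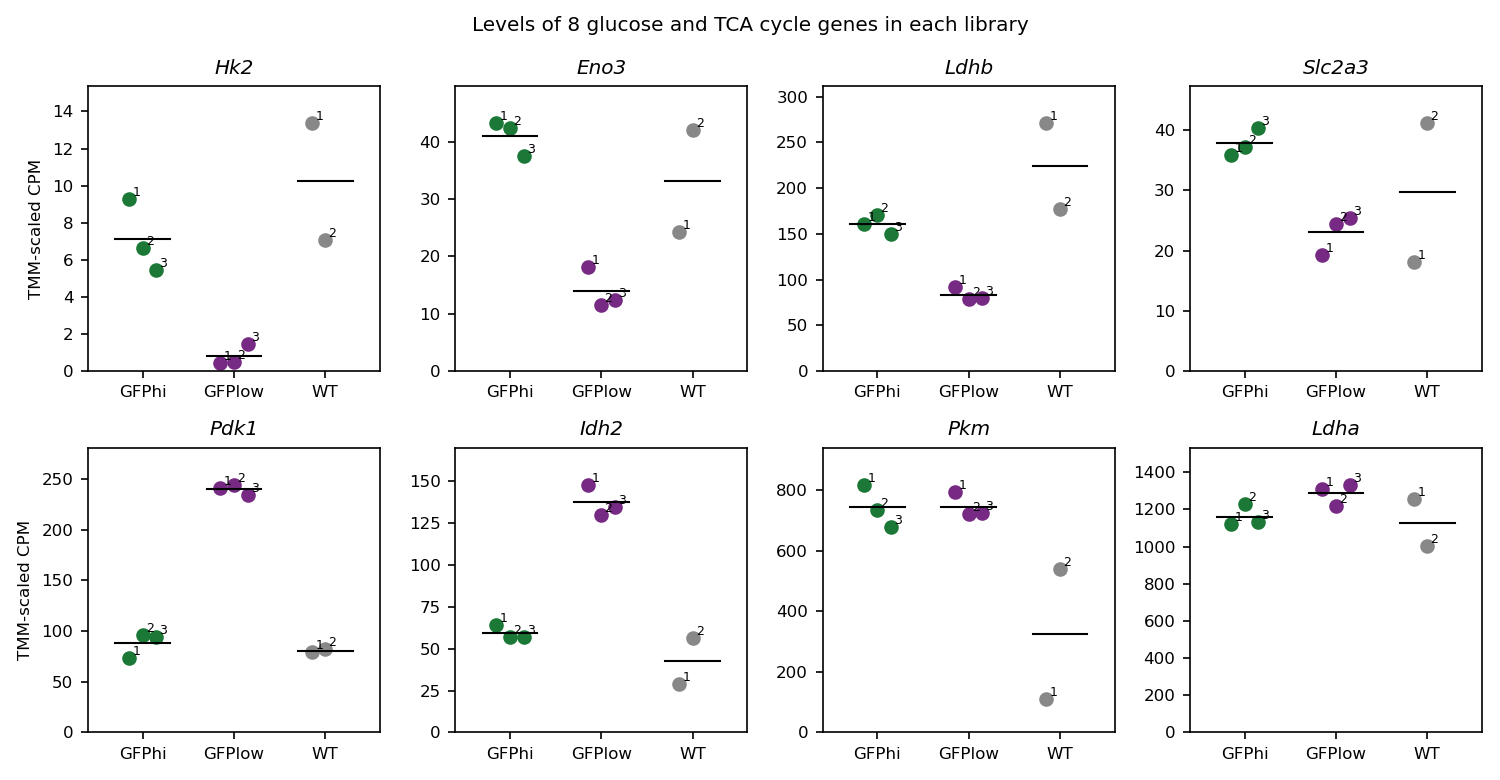
TMM-scaled CPM of 8 genes in each library, on linear axes from 0. Points are libraries with their number, bars are group means, and the 3 GFPhi and 3 GFPlow libraries do not overlap for Hk2, Eno3, Ldhb, Slc2a3, Pdk1 and Idh2 but do for Pkm and Ldha.

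The plot of levels by library shows how evenly the 6 genes in its first 6 panels separated GFPhi from GFPlow, and how far the WT libraries lay from each other for Eno3, Slc2a3 and Pkm. The shared spread of the model includes that distance. Fitted to the 6 GFPhi and GFPlow libraries alone, edgeR called 9 of the 42 genes (21.4%) against 10.7% of all genes (5.9% higher and 4.82% lower). Higher in GFPhi in that fit were Hk2, Eno3, Ldhb (0.94 ± 0.09, adjusted p = 7.50e-04), Slc2a3 (0.71 ± 0.13, adjusted p = 0.0133) and Tpi1 (0.65 ± 0.16, adjusted p = 0.0413). Lower were Pdk1, Idh2, Pfkp (-0.37 ± 0.08, adjusted p = 0.0205) and Bpgm (-0.52 ± 0.11, adjusted p = 0.0287). With same-numbered GFPhi and GFPlow libraries treated as pairs in that fit, 7 of the 42 genes were called, 4 higher and 3 lower in GFPhi. Of all 18851 genes, 1648 were called in that way. Whether a number marks a shared mouse is not given. In the fits to 8 libraries with 1 left out, Pdk1 stayed called in 8 of 8 (largest adjusted p 0.0398). Hk2 was not called without GFPhi library 1, 2 or 3 or GFPlow library 1 or 2 (adjusted p 0.0782 to 0.137). Eno3 and Idh2 were not called without any 1 of the 6 GFPhi and GFPlow libraries (0.0539 to 0.137 for Eno3 and 0.155 to 0.212 for Idh2). With library numbers as a block in the fit to all 8 libraries, WT included, only Pdk1 of the 42 was called. Hk2, Eno3 and Idh2 were not called in it. That block also ties the WT libraries to those numbers, so it is not a paired test of GFPhi and GFPlow alone.

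**Figure D2:**
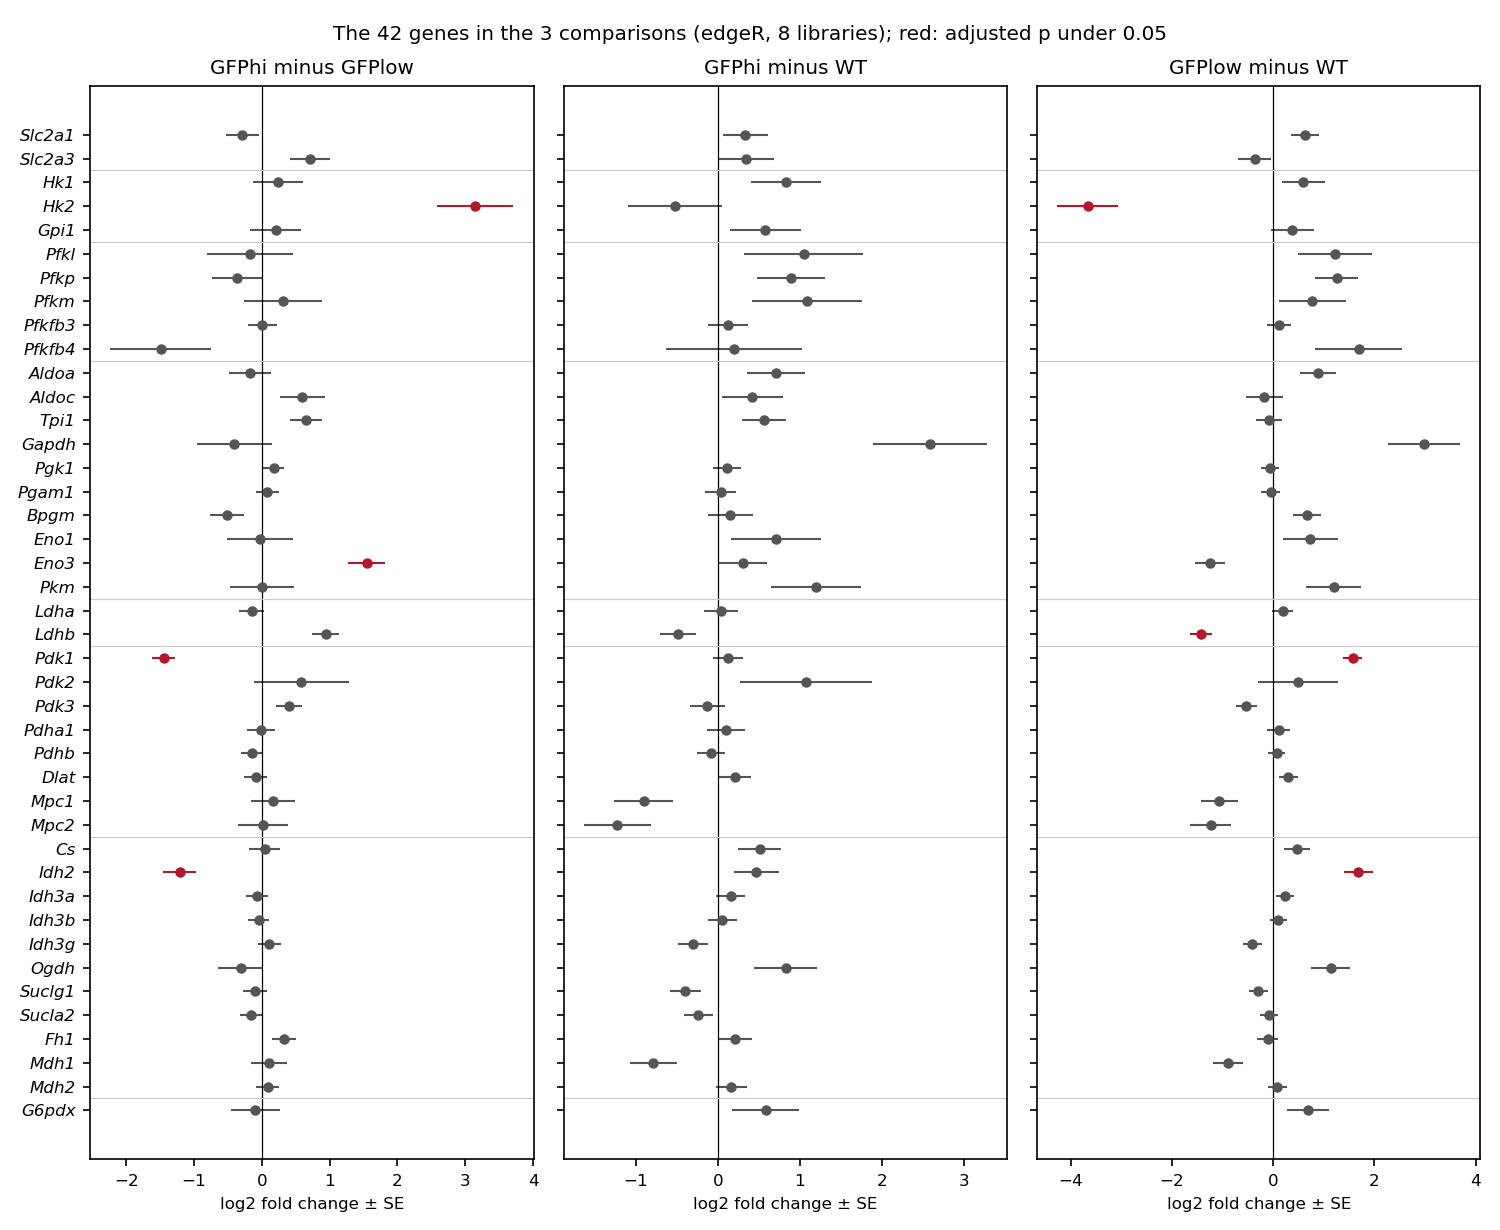
Log2 fold change ± SE of each of the 42 genes in the 3 comparisons, from edgeR fitted to 8 libraries, with genes in the order of the pathway and grey lines between roles. Red points passed an adjusted p under 0.05: Hk2, Eno3, Pdk1 and Idh2 between GFPhi and GFPlow, none between GFPhi and WT, and Hk2, Ldhb, Pdk1 and Idh2 between GFPlow and WT.

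The plot of fold changes shows most genes near 0 between GFPhi and GFPlow, with the called genes away from it on both sides. In the comparisons with WT the whole phosphofructokinase group lies to the right of 0 with wide errors. For Pfkfb3 and Pfkfb4 between GFPhi and WT this rests on WT library 1. For Pfkfb3 between GFPlow and WT, WT library 2 (15.1 CPM) lay inside the GFPlow range of 12.4 to 17.2 CPM. Against WT library 2 alone, GFPhi lay at 0.18 for Pfkl, 0.28 for Pfkp, 0.34 for Pfkm, -0.04 for Pfkfb3 and -0.63 for Pfkfb4, and against WT library 1 alone at 3.52, 1.96, 2.78, 0.31 and 2.45.

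Ratios of isoenzyme genes within a library do not depend on how libraries are scaled. The log2 ratio of Hk1 to Hk2, per kilobase, was 2.79, 2.82 and 3.14 in GFPhi libraries 1 to 3, 6.76, 6.39 and 4.96 in GFPlow and 0.10 and 2.67 in WT. Hk1 thus dominated in GFPlow, while in WT library 1 the levels per kilobase of all exonic bases were nearly equal. That near equality depends on the length used. Hk1 has 8532 exonic bases but a longest transcript of 4278, against 5969 and 5513 for Hk2, so by longest transcript Hk1 was higher there too. The log2 ratio of Ldha to Ldhb was 1.73, 1.77 and 1.85 in GFPhi, 2.76, 2.89 and 2.98 in GFPlow and 1.13 and 1.42 in WT, with the groups in 3 separate ranges. That of Eno1 to Eno3 was 3.20, 3.31 and 3.36 in GFPhi, 4.51, 5.11 and 5.07 in GFPlow and 1.73 and 3.28 in WT, where library 2 lay inside the GFPhi range and library 1 far below it. The kinase pair changed order. Pdk1 over Pdk3 was -1.65, -1.03 and -0.81 in GFPhi and -1.63 and -1.18 in WT, where Pdk3 was the more abundant, and 0.65, 0.63 and 0.79 in GFPlow, where Pdk1 was.

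**Figure D3:**
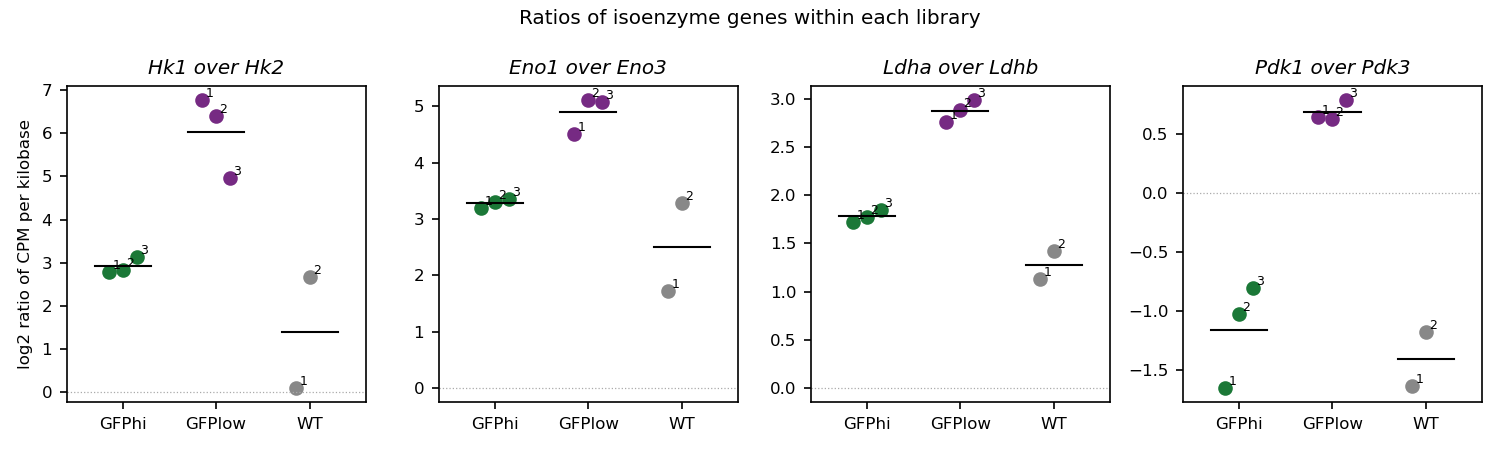
Log2 ratio of CPM per kilobase of 4 pairs of isoenzyme genes in each library. Points are libraries with their number, bars are group means and the dotted line is an equal level of both genes. The 3 GFPlow libraries lie above all GFPhi and WT libraries in each panel.

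The plot of isoenzyme ratios shows the 4 pairs with the genes called above. Of 11 pairs examined, 7 did not overlap between GFPhi and GFPlow, the others of them being Slc2a1 over Slc2a3, Aldoa over Aldoc and Pdk1 over Pdk2. No share over all genes was computed for pairs, and 30% of all single genes were separate between these groups. The 7 pairs reuse Hk2, Eno3, Ldhb, Slc2a3, Aldoa and Pdk1, each already separate on its own, and are not further evidence. In the exact two-sided permutation test each of these 7 had p = 0.1, the smallest that 3 against 3 libraries can give, and an adjusted p of 0.347 over the 33 tests of the 3 comparisons. No pair could therefore pass the threshold.

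The comparison of GFPlow with WT sets FoxP3- cells that carry TIM-3 against FoxP3+ cells that do not, so 2 differences of gate and genotype cannot be told apart. It shares the GFPlow libraries with the comparison above. Here 4 of 42 genes (9.52%) passed, against 3.3% of all genes (1.08% higher and 2.23% lower in GFPlow): Pdk1 and Idh2 were higher in GFPlow, and Hk2 and Ldhb were lower. The median of the 42 log2 fold changes was 0.16 (0.02 over all genes), and 22 of the 42 (52.4%) did not overlap, against 40.3% of all genes.

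Pdk1 was at 78.9 and 82.7 CPM in WT libraries 1 and 2, which lie close together and far below the 3 GFPlow libraries (log2 fold change 1.57 ± 0.19, adjusted p = 0.00574). Against WT library 2 alone it was 1.53 ± 0.16, and against WT library 1 alone 1.61 ± 0.16, which differ by less than their errors. Pdk1 was called in 8 of 8 fits that left out 1 library. Idh2 was at 29.0 and 56.5 CPM in WT, again below every GFPlow library (1.68 ± 0.29, adjusted p = 0.0212). It was 1.28 against WT library 2 and 2.25 against WT library 1, and its adjusted p was 0.0544 to 0.0879 without any 1 of the 6 GFPhi and GFPlow libraries.

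Hk2 was at 13.4 and 7.09 CPM in WT, and even the lower of these stood well above GFPlow (-3.66 ± 0.60, adjusted p = 0.0183). It was -3.14 (adjusted p = 0.0261) against WT library 2 alone and -4.04 (adjusted p = 9.03e-04) against WT library 1 alone. The call was lost without GFPhi library 2 or GFPlow library 1 or 2 (adjusted p 0.0507 to 0.0836). Ldhb was at 271 and 177 CPM in WT, both above every GFPlow library (-1.43 ± 0.22, adjusted p = 0.0128). It was -1.09 against WT library 2 and -1.69 against WT library 1, and the call was lost without GFPlow library 1, 2 or 3 (adjusted p 0.0565 to 0.0766). Eno3 was at 24.3 and 42.1 CPM in WT, above GFPlow in both libraries but not called (-1.25 ± 0.29, adjusted p = 0.0669).

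Which genes were called depended on the WT library. Against WT library 2 alone, with that library assumed to vary like those of the other groups, 9 of 42 genes (21.4%) passed, against 6.54% of all genes. Lower in GFPlow were Hk2, Ldhb, Eno3 (-1.59) and Slc2a3 (-0.85). Higher were Pdk1, Idh2, Pfkp (0.64), Aldoa (0.36) and Ldha (0.36). Against WT library 1 alone 29 of 42 passed (69.0%), against 47.9% of all genes. With only the 5 GFPlow and WT libraries in the fit, none of the 42 passed and 36 genes did in all (0.191%). In that fit the adjusted p of Pdk1 was 0.0806, and the range of its adjusted p over the fits without 1 library was 1.03e-04 to 0.0344.

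GFPhi and WT are both FoxP3+, and setting them side by side asks how TIM-3 bears on these genes in Treg cells, although the gates on TIM-3 and FLAG differ too. None of the 42 genes passed edgeR's test and none of all 18851 did (0%). At an unadjusted p under 0.05 there were 4 of the 42 and 2588 of all genes (13.7%), while DESeq2 called 1 of the 42, Mpc2, and 320 genes (1.7%). The median log2 fold change of the 42 was 0.20 (0.08 over all genes), 32 of 42 lay above 0, and 17 (40.5%) did not overlap, against 28.1% of all genes.

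Pdk1 differed between GFPhi and both WT libraries by 0.12 ± 0.18, with a 95% interval of -0.30 to 0.54. Hk2 differed by -0.52 ± 0.57, Ldhb by -0.48 ± 0.22, Idh2 by 0.47 ± 0.27 and Eno3 by 0.30 ± 0.30, all without a call, and their intervals include 0. Against WT library 2 alone, Pdk1 lay at 0.08 ± 0.15, Hk2 at 0.00 ± 0.66, Ldhb at -0.15 ± 0.12, Idh2 at 0.06 ± 0.12 and Eno3 at -0.04 ± 0.25. In that fit none passed, of the 42 or of all genes, and 40 of the 42 log2 fold changes were within 0.5 of 0, with a median of 0.03. The exceptions were Gapdh at 2.23 ± 0.88 and Pfkfb4 at -0.63 ± 0.62. The 95% intervals reached a median of 0.304 to either side (0.146 to 2.04 over the 42 genes), with the spread taken from GFPhi and GFPlow. Such a width is not a limit of detection, because the test is adjusted over all genes. Larger differences may also go without a call.

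Against WT library 1 alone 27 of 42 genes passed (64.3%), 20 higher and 7 lower in GFPhi, against 44.1% of all genes (26.2% higher and 17.9% lower). Pkm was at 110.4 and 540.2 CPM in WT, so the GFPhi libraries lay 2.76 above library 1 and 0.45 above library 2 on the log2 scale. Aldoa was at 189 and 483 CPM in WT, Pfkp at 60.4 and 191, Hk1 at 20.4 and 64.7 and G6pdx at 22.7 and 73.8. In each of these the first WT library was below every other library of the series and the second was much closer to the GFPhi range. Cs, at 119 and 217 CPM, and Slc2a1, at 15.6 and 24.3, had the same order with a smaller gap. Slc2a3 was at 18.2 and 41.2 CPM, with library 2 just above the GFPhi range. Ldha was at 1255 and 1001 CPM in WT, with library 1 above and library 2 below the GFPhi libraries.

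The opposite order held for Mpc1, Mpc2 and Mdh1. Mpc2, the pyruvate carrier subunit, was at 83.4, 95.6 and 94.3 CPM in GFPhi, 88.3, 85.6 and 97.1 CPM in GFPlow and 327 and 99.0 CPM in WT. Only WT library 1 stood out, and the log2 fold change of GFPhi against WT went from -1.83 against library 1 to -0.13 against library 2. Mdh1, the cytosolic malate dehydrogenase, was at 473, 524 and 513 CPM in GFPhi, 461, 465 and 476 CPM in GFPlow and 1168 and 566 CPM in WT, with log2 fold changes of -1.20 and -0.18. Mpc1 was at 103 and 37.2 CPM in WT and 37.6 ± 3.23 CPM in GFPhi (SD, n = 3).

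**Figure D4:**
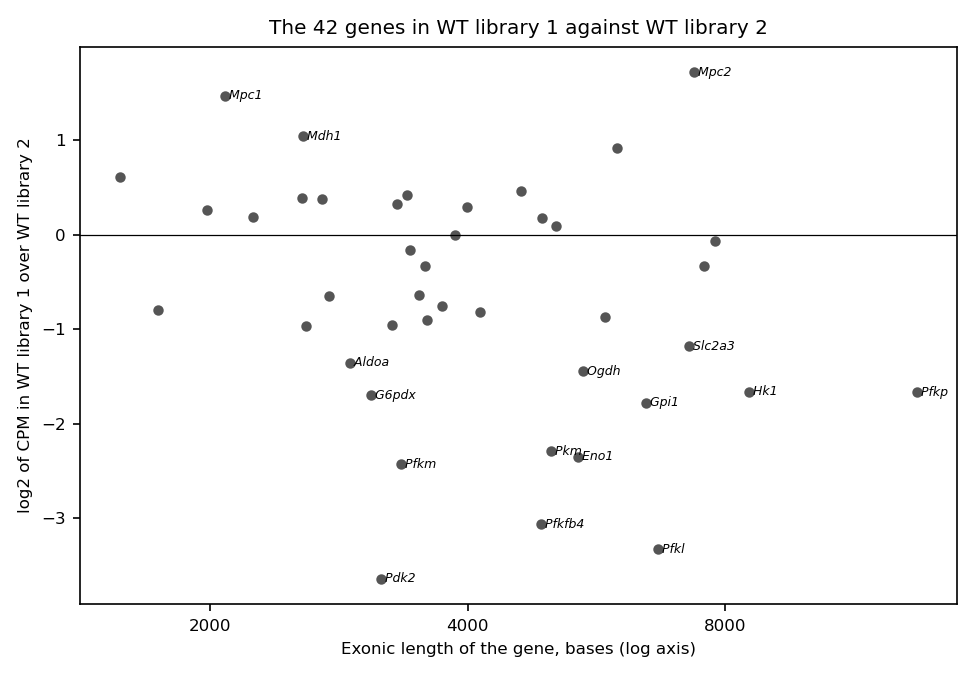
Log2 of the CPM in WT library 1 over that in WT library 2 (vertical axis) against the exonic length of the gene in bases (horizontal log axis), 1 point for each of the 42 genes. Genes more than 2-fold apart are named: 13 lie below -1 and 3 (Mpc1, Mpc2 and Mdh1) above 1.

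The plot of WT library 1 against WT library 2 shows 16 of the 42 genes more than 2-fold apart. The widest were Pdk2, at 1.14 and 14.2 CPM, and Pfkl, at 6.59 and 66.1 CPM. WT library 1 was the lowest of the 8 libraries for 23 of the 42 genes and the highest for 10, and WT library 2 for 4 and 2. In WT library 1 mitochondrial genes held 6.54% of counts (2.35% to 2.78% elsewhere). Long genes were lower in it: the median log2 difference from WT library 2 was 0.90 over the 3525 genes under 1000 exonic bases and -0.49 over the 5157 genes of 4000 to 8000 bases. Across genes the rank correlation with length was -0.22 over all genes and -0.30 over the 42, both from the same pair of libraries. With length trends removed by offsets in the fit, 4 of the 42 genes were called between GFPhi and GFPlow, against 2.51% of all genes.

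Gapdh, glyceraldehyde-3-phosphate dehydrogenase, must be read with its copies. It was at 29.4, 27.9 and 5.78 CPM in GFPhi, 36.0, 26.5 and 21.0 CPM in GFPlow and 2.53 and 4.45 CPM in WT, with GFPhi library 3 near WT and far from the other GFPhi libraries. The genome holds 77 near-identical copies of its transcript elsewhere (at least 95% identity over at least 300 bases), and how reads that fit several places were counted is not given in the sources used here. Counts on these copies were 63.7% to 727% of those on Gapdh itself. Gapdh and copies summed to 69.3, 61.0 and 38.1 CPM in GFPhi, 59.0, 51.3 and 46.5 CPM in GFPlow, and 19.4 and 36.8 CPM in WT. The log2 fold changes of Gapdh were -0.40 ± 0.55 between GFPhi and GFPlow, 2.58 ± 0.69 between GFPhi and WT and 2.99 ± 0.71 between GFPlow and WT, none called, and its level is uncertain. Hk2, Eno3, Pdk1 and Idh2 have no such copy and share no exonic base with another gene. Counts on copies of the remaining genes were at most 2.18% of the gene's own (Pkm). Annotated exons of other genes cover 23.1% of the exonic bases of Mpc1, 16.2% of Pdha1, 15.3% of Pkm and 13.6% of G6pdx, and reads of such partners cannot be told apart here.

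**Figure D5:**
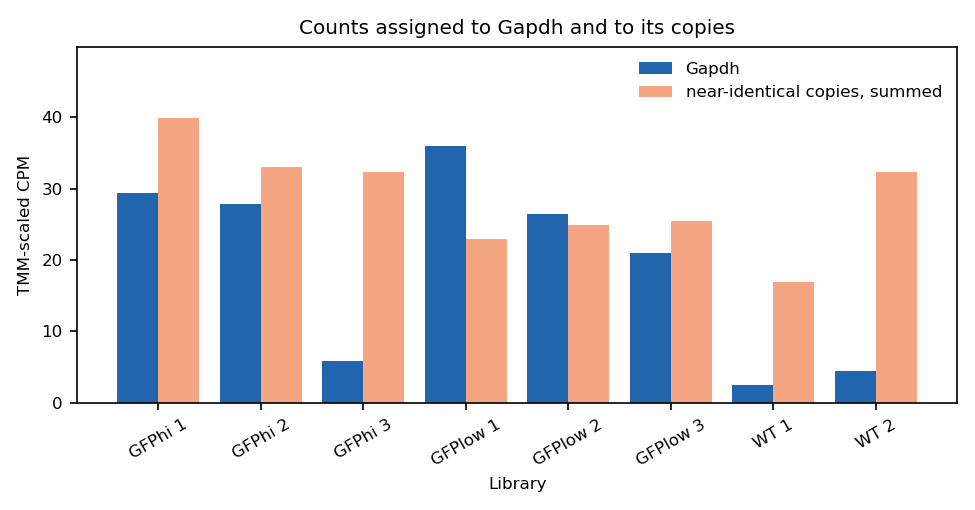
TMM-scaled CPM of Gapdh (blue) and the sum over its near-identical copies elsewhere in the genome (orange) in each of the 8 libraries. The copies hold more than Gapdh in GFPhi and WT, and in GFPlow library 3, while Gapdh holds more in GFPlow libraries 1 and 2.

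The plot of Gapdh and its copies shows GFPhi library 3 and WT library 2 with few counts on Gapdh itself while their copies lie within the range of the GFPhi and GFPlow libraries. In WT library 1 both are the lowest of the 8 libraries.

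Of 76 further genes of these pathways and their regulators, 62 had enough counts to be tested. Between GFPhi and GFPlow 1 of the 62 passed (1.61%, against 2.26% of all genes). This was Arrdc4, an arrestin-domain gene and paralog of the glucose-uptake inhibitor Txnip, at 23.3, 21.7 and 15.3 CPM in GFPhi and 5.06, 5.51 and 3.74 CPM in GFPlow. The groups lay far apart (log2 fold change 2.08 ± 0.27, adjusted p = 0.00888, and 0.0513 to 0.0532 without GFPhi library 1 or 2 or GFPlow library 1). Arrdc4 was at 31.8 and 23.3 CPM in WT, also above GFPlow (-2.53 ± 0.29, adjusted p = 0.00477, called in 8 of 8 fits without 1 library). Txnip itself was at 440.5, 443 and 587 CPM in GFPhi and 586, 498 and 621 CPM in GFPlow, which overlap. Slc2a8, an intracellular hexose transporter, was at 10.5, 6.44 and 7.65 CPM in GFPlow and 1.36 and 2.47 CPM in WT and passed between these (2.09 ± 0.44, adjusted p = 0.0448). It lost the call in 7 of 8 fits without 1 library (adjusted p 0.0652 to 0.148), all but the one without WT library 2. Slc2a8 and Arrdc4 were the 2 of 62 (3.23%) called between GFPlow and WT, and none of the 62 passed between GFPhi and WT.

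Among regulators that did not pass, Bhlhe40, a repressor induced by activation and hypoxia, was at 84.2, 65.2 and 33.6 CPM in GFPhi, 16.6, 18.8 and 15.2 CPM in GFPlow and 15.9 and 44.1 CPM in WT (1.85 ± 0.44 between GFPhi and GFPlow, adjusted p = 0.0864). Myc, a driver of glycolytic genes in T cells, was at 249, 235 and 199 CPM in GFPhi, 131, 122 and 119 CPM in GFPlow and 57.5 and 206 CPM in WT (0.88 ± 0.40, adjusted p = 0.454). Both were higher in every GFPhi library than in every GFPlow library. Hif1a, the inducible hypoxia factor subunit, was at 133, 134 and 138 CPM in GFPhi and 99.7, 127 and 104 CPM in GFPlow (0.29 ± 0.17), also without overlap. Of the remaining pyruvate and cycle genes, Me2, the mitochondrial malic enzyme, was at 158, 182 and 156 CPM in GFPhi and 228, 264 and 277 CPM in GFPlow, lower in every GFPhi library (-0.63 ± 0.27, adjusted p = 0.426). Pdk4, the fourth kinase of pyruvate dehydrogenase, had no count in any library.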

How the data were processed

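The authors deposited 1 table of counts per Ensembl gene, without normalization. HISAT2 2.1.0, SAMtools 1.9, HTSeq 0.11.2, edgeR, R 4.0 and the build GRCm38 are named in the submitters' processing notes, and the libraries were made with SMART-Seq HT and Nextera XT kits, per the labels' protocols. What each tool did, the strand setting, the annotation and how reads with several places were handled is not given in the sources used here, which name no molecular identifiers. Of the 54837 identifiers, 54808 matched GENCODE vM21.

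From the counts, edgeR 4.0.16 in R 4.3.3 kept 18851 genes (filterByExpr with the 3 groups), scaled libraries by TMM and fitted the 3 group means to the 8 libraries together, with estimateDisp and a robust glmQLFit, which left 5 residual degrees of freedom. Comparisons used the two-sided quasi-likelihood test with Benjamini-Hochberg adjustment over all genes and a threshold of 0.05. Ratios of isoenzyme genes were compared by an exact two-sided permutation test over libraries. Copies were found with BLAST 2.17.0. Python 3.11.15, pandas 2.3.3, scipy 1.17.1 and matplotlib 3.10.9 were used for the rest.

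The 42 genes, the further pathway genes and the markers were chosen with earlier results of these data known. A further B cell marker is not reported here. Values in every library are given for genes called in any comparison, for the 3 with the smallest p where fewer than 3 were called, and for Slc2a1, Slc2a3, Hk1, Hk2, Pfkp, Aldoa, Gapdh, Pkm, Ldha, Ldhb, Pdk1, Cs, Idh2 and G6pdx. Of the further lists, called genes and at most 2 others each are named. Other genes with values by library (Tpi1, Pfkfb4, Pdk2, Pdk3, Mpc1 in WT, Pfkl, Foxp3, Lyz2, Txnip, Hif1a) were chosen after their values were seen. Pgk1, Pdha1 and Idh3g, given by library as genes on the X chromosome, were not among the genes set beforehand either. Identifiers of the 2 Aldoa entries were resolved to the longer gene model.

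Alternatives were other scalings and filters, DESeq2 1.42.0, limma 3.58.1 voom with quality weights, no robust estimation, offsets for exonic length, a replicate block, only the groups compared, and each library left out. DESeq2 and length offsets without WT library 1 were chosen after seeing the data. The model was tested on simulated counts for 18851 genes with 200 changed: between GFPhi and GFPlow it recovered 3% of 2-fold and 30% of 4-fold changes, between GFPhi and WT 1% and 18%, and between GFPlow and WT 0% and 3%. A gene without a call may therefore differ. Each rate comes from 1 simulated set, with the spread estimated over all 8 libraries, WT library 1 included. The gap between the 2 comparisons with WT is therefore not read as a difference in sensitivity.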

Additional observations from a re-analysis of the deposited data

How the results depend on the processing

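None of the 42 genes changed sign under the alternatives run in a comparison that called it. Of the values for named genes under alternatives, 937 kept their direction and their side of the threshold, 79 passed it only under an alternative, 52 lost it, and 46 changed sign without a call. Scaling, filters other than no filter, no robust estimation and length offsets kept each count of called genes within 1.5 times. Without any filter 1 gene was called between GFPhi and WT. The cause of each shift below was not tested.

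Between GFPhi and GFPlow the count of the 42 genes called (4) became 8 under voom, 9 with only the groups compared, 13 under DESeq2 without WT library 1 and 9 with length offsets without it, and ran from 1 to 9 with 1 library left out. All genes called (426) became 1375 under DESeq2, 2271 under voom, 2021 with only the groups compared, 3246 under DESeq2 without WT library 1 and 2290 with length offsets without it, and 105 to 2025 with 1 library left out. Of the 426, 308 were higher and 118 lower in GFPhi, against 872 and 503 under DESeq2, 1308 and 963 under voom, 1113 and 908 with only the groups compared, 1132 and 885 without WT library 1, 1159 and 866 without WT library 2, 1771 and 1475 under DESeq2 without WT library 1, and 911 and 1379 with length offsets without it, where the balance turned. Between GFPhi and WT the count of the 42 (0) became 1 under DESeq2 (Mpc2) and 1 under DESeq2 without WT library 1 (Pkm), and ran from 0 to 27 with 1 library left out. All genes called (0) became 320 under DESeq2 (6 higher and 314 lower in GFPhi), 70 under DESeq2 without WT library 1 (61 higher and 9 lower), and 0 to 8307 with 1 library left out. Between GFPlow and WT the count of the 42 (4) became 11 under DESeq2, 0 under voom, 0 with only the groups compared, 13 under DESeq2 without WT library 1 and 9 with length offsets without it, and ran from 1 to 29 with 1 library left out. All genes called (623) became 3243 under DESeq2, 72 under voom, 36 with only the groups compared, 2435 under DESeq2 without WT library 1 and 1215 with length offsets without it, and 211 to 9037 with 1 library left out. Of the 623, 203 were higher and 420 lower in GFPlow, against 1234 and 1201 under DESeq2 without WT library 1, 621 and 594 with length offsets without it, 5126 and 3911 without WT library 2, 17 and 19 with only the groups compared, and 5 and 67 under voom.

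The 46 values that changed sign belong to 14 differences of the 42 genes, and none was called under the setting or in the comparison reported. Between GFPhi and GFPlow, Mpc2 became -0.00099 with median-of-ratios scaling, -0.00099 under DESeq2, -0.077 with length offsets, -0.049 with the replicate block and length offsets and -0.078 with length offsets without WT library 1. Pkm became 0.0094 with upper-quartile scaling and 0.0070 with the filter of 5 CPM in 2 libraries. Cs became -0.039 with length offsets, -0.042 with the replicate block and length offsets and -0.040 with length offsets without WT library 1. Mdh1 became -0.031 with length offsets, -0.021 with the replicate block and length offsets and -0.033 with length offsets without WT library 1. Between GFPhi and WT, Ldha became -0.12 with upper-quartile scaling, -0.066 with the filter of 5 CPM in 2 libraries, -0.34 with length offsets and -0.29 with the replicate block and length offsets. Pdk1 became -0.021 with upper-quartile scaling, -0.23 with length offsets and -0.24 with the replicate block and length offsets. Slc2a3 became -0.12 under DESeq2 without WT library 1 and -0.17 with length offsets without WT library 1. Hk2 became 0.0073 under DESeq2 without WT library 1. G6pdx became -0.029 under DESeq2 without WT library 1 and -0.062 with length offsets without WT library 1. Eno3 became -0.039 under DESeq2 without WT library 1 and -0.013 with length offsets without WT library 1. Between GFPlow and WT, Ldha became -0.081 with length offsets and -0.040 with the replicate block and length offsets. Hk1 became -0.00015 under DESeq2 without WT library 1. With 1 library left out, log2 fold changes between GFPhi and GFPlow ran from -0.72 to 0.043 for Gapdh, from -0.025 to 0.072 for Mpc2 and from -0.075 to 0.060 for Pkm. With 1 library left out, log2 fold changes between GFPhi and WT ran from -0.045 to 0.77 for Eno3, from -0.035 to 1.68 for G6pdx, from -0.90 to 0.0015 for Hk2, from -0.10 to 0.21 for Ldha and from -0.13 to 1.07 for Slc2a3. With 1 library left out, log2 fold changes between GFPlow and WT ran from -0.011 to 1.66 for Hk1 and from -0.85 to 0.35 for Slc2a3.

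The titles number the GFPhi and GFPlow libraries M1 to M3, and no label says whether a number marks a shared mouse. Deviations of same-numbered GFPhi and GFPlow libraries correlated at 0.0671, 0.0662 and 0.149. The numbers were not taken to pair them, although each library correlated best with its own number. Same-numbered libraries also matched in holding Xist or Ddx3y, with Xist in library 3 of both groups. The main fit may therefore leave out a pairing. The replicate block joined WT libraries 1 and 2 to the GFPhi and GFPlow libraries of those numbers, although their mice lacked FSF-TIM-3. It is therefore not a paired test of GFPhi and GFPlow alone. With it, 1 of the 42 genes and 182 of all genes were called between GFPhi and GFPlow. The gene was Pdk1, while Hk2, Eno3 and Idh2 had an adjusted p of 0.0833, 0.108 and 0.151. With length offsets too, 1 (Idh2) and 209 were called. With only the groups compared, and so no WT library in the block, 7 and 1648 were called. Under the replicate block 1 and 158 were called between GFPlow and WT (1 and 204 with length offsets too, and 2 and 356 with only the groups compared). Between GFPhi and WT the block with only the groups compared called 1 (Gapdh) and 22.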

Other observations

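The genes Pgk1, Pdk3, Pdha1, Idh3g and G6pdx of the 42 lie on the X chromosome. Xist, which is transcribed from the inactive X, was at 242 CPM in WT library 2, 237 CPM in GFPhi library 3 and 184 CPM in GFPlow library 3, while none of the other 5 libraries exceeded 0.263 CPM. G6pdx was at 73.3, 71.2 and 72.8 CPM in GFPhi libraries 1 to 3 and 71.0, 81.6 and 80.1 CPM in GFPlow. Pgk1 was at 164, 183 and 154 CPM in GFPhi and 154, 146 and 142 CPM in GFPlow. Pdk3 was at 76.0, 64.3 and 54.4 CPM in GFPhi and 50.8, 52.1 and 44.6 CPM in GFPlow. Pdha1 was at 134, 131 and 123 CPM and 130.0, 133 and 127 CPM, and Idh3g at 282, 270.2 and 286 CPM and 272, 259.9 and 245 CPM. Library 3, the one with Xist, was the lowest of each group for Pdk3, Pgk1 and Pdha1, the highest of GFPhi and the lowest of GFPlow for Idh3g, and neither for G6pdx. Whether these levels follow Xist was not tested.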
